A study of Macaca mulatta with 13 samples.

Results

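The miR-206 and miR-133b cluster was followed across small RNA libraries of the vastus lateralis, a thigh muscle, from rhesus monkeys. Its members were taken by name: every miRNA row of the deposited table called miR-206 or miR-133b, alone or with an arm. This gave 3 of the 909 named miRNAs, namely miR-206 (1 row, listed without an arm), miR-133b-3p and miR-133b-5p. The table held 8 biopsies from animals on caloric restriction (CR) and 5 from animals on the control diet (Control). No drug, allele or age is given for either group, and the study's stated aim concerns the prevention by CR of muscle loss with age. Samples are labelled separately, but the labels do not say that each came from its own animal, so p-values measure the spread between these samples.

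Both miRNAs belong to the small set that skeletal muscle makes in large amounts under the control of myogenic transcription factors. miR-206 carries the same seed as miR-1, rises as myoblasts differentiate, and in mice is known for supporting muscle regeneration and the rebuilding of nerve contacts after injury. miR-133b is made beside it and differs from miR-133a only in its last base, and the miR-133 family is known for acting on myoblast proliferation and fibre differentiation. Sister loci elsewhere each make a miR-1 and a miR-133 copy, so that every miRNA of this kind has a partner at its own locus and a relative at another. In the RefSeq annotation of the T2T-MMU8v2.0 assembly, MIR206 and MIR133B neighbour each other on the same chromosome, with 1 gene, a long noncoding RNA, starting between them. MIR1-2 and MIR133A are adjacent, as are MIR1-1 and MIR133C but for 1 gene. That assembly is not the build of the counts, and only the order of genes was taken from it.

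Named miRNAs drew 1154326 to 5392611 counts per library, with 397 to 476 miRNAs detected, and miR-486-5p alone took 42.4 to 70.7% of them. Levels are therefore given as CPM (counts scaled to a common library size), adjusted by TMM factors, which weigh the bulk of the miRNAs and not the largest alone, and differences between diets as log2 fold changes, CR against Control. Muscle miRNAs marked every library, with miR-133a ranking 4th of the 263 tested miRNAs by mean level. Control replicate 4 stood apart: it held the lowest level of miR-206, miR-133b-3p, miR-1-3p and miR-133a, and results that rest on it are given with and without it. In a bulk biopsy, fewer cells of a type and less RNA per cell cannot be told apart.

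miR-206, the seed relative of miR-1, was among the more abundant miRNAs of these libraries. It ranked 22nd of 263 by mean level and drew 4651 to 15522 counts per library, or 0.277% ± 0.123 (SD, n = 8) of miRNA counts in CR and 0.191% ± 0.0562 (SD, n = 5) in Control. In the 8 CR libraries its level ran from 1664 CPM (replicate 6) through a median of 2829 to 4158 CPM (replicate 8). In Control replicates 1 to 5 it was 3049, 1566, 1660, 570 and 2435 CPM. The groups overlapped: 5 of 8 CR libraries lay within the Control range, the lowest of them replicates 6 and 2 at 1664 and 1685 CPM, and Control replicate 1 lay above the CR median.

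The mean of miR-206 was 2905 ± 925 CPM in CR (SD, n = 8) and 1856 ± 940 CPM in Control (SD, n = 5), and 6 of 8 CR samples lay above the Control mean. The log2 fold change was 0.65 ± 0.33 (SE), with a 95% interval of -0.0425 to 1.34, which reaches past a doubling but also includes no difference. With edgeR (quasi-likelihood, Benjamini-Hochberg over 263 miRNAs) the adjusted p was 0.985 (unadjusted 0.0643), so miR-206 did not pass. No miRNA did: 0% of the 263 were called at an adjusted p of 0.05, 2.66% had an unadjusted p below 0.05, and 0% had groups without overlap in either direction. DESeq2 and limma-voom also called 0, each with 7 at the unadjusted threshold. Leaving out Control replicate 4 gave 0.42 (interval -0.14 to 0.98), and the highest, 0.88 (interval 0.16 to 1.6, adjusted p 0.866), came without Control replicate 1.

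miR-133b-3p, the arm that carries the family's seed, was the less abundant partner and the steadier one. It ranked 37th of 263 and drew 1879 to 4674 counts per library. In the 8 CR libraries its level ran from 643 CPM (replicate 5) through a median of 1007 to 1222 CPM (replicate 8). In Control replicates 1 to 5 it was 876, 832, 1083, 289 and 1100 CPM. Apart from Control replicate 4, every Control value lay inside the CR range.

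The mean of miR-133b-3p was 959 ± 181 CPM in CR (SD, n = 8) and 836 ± 329 CPM in Control (SD, n = 5), and 6 of 8 CR samples lay above the Control mean. The log2 fold change was 0.20 ± 0.27 (SE), with an interval of -0.36 to 0.76 that excludes a doubling or a halving, and the edgeR adjusted p was 0.985. Once Control replicate 4 was left out it was -0.0202 (interval -0.43 to 0.39). It was 0.11 without CR replicate 8, 0.31 and 0.30 without Control replicates 3 and 5, and 0.00788 with library totals alone, a scaling that moved the median of all miRNAs to -0.26 from 0.0103 and left miR-206 at 0.53.

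The other arm, miR-133b-5p, was close to absent. It had 13 counts in all, 8 of them in CR and 5 in Control, and no library held more than 2. It was detected in 10 of 13 libraries, with 0 counts in CR replicate 8 and in Control replicates 2 and 4, and did not pass the filter on low counts. Where no count was seen, 3 counts remain possible, which is 0.768, 1.05 and 0.647 CPM of these unscaled libraries in turn. The 5p arm made up 0.0331% of the counts of both arms (95% exact binomial interval 0.0176 to 0.0565%, counting error only), and its diet difference could not be measured at this depth.

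**Figure D1:**
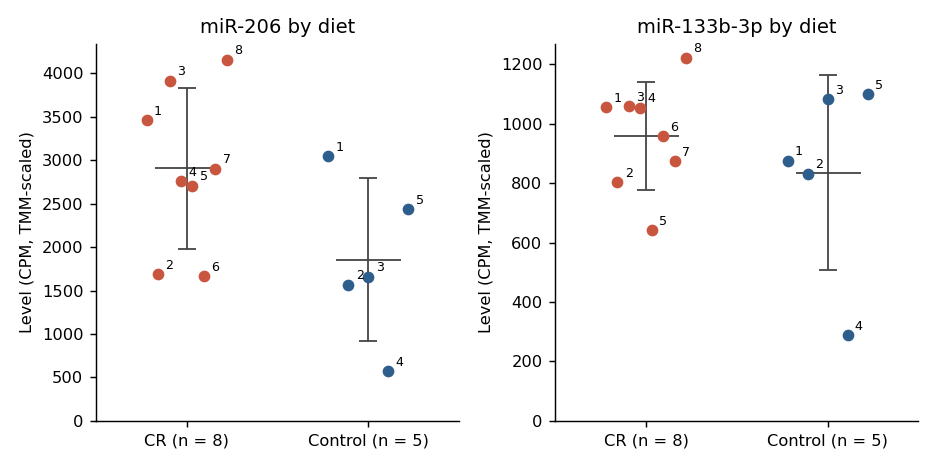
Levels of miR-206 and miR-133b-3p (CPM, TMM-scaled) in each library, CR left and Control right. Points are libraries labelled by replicate number, and the bars give the mean and SD. miR-206 averaged 2905 CPM in CR and 1856 CPM in Control with overlapping groups, and Control replicate 4 is the lowest library for both miRNAs.

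The levels of the cluster partners were correlated over all 13 libraries, but this rested largely on Control replicate 4. Pearson's r between the log2 CPM of miR-206 and miR-133b-3p was 0.786 (two-sided permutation p 0.0107, adjusted over 6 pairs of muscle miRNAs 0.0157), and Spearman's rho was 0.50 (permutation p 0.0843, adjusted 0.169). Without the 2 samples farthest from the median of miR-206, Control replicates 2 and 4, r was 0.265 (permutation p 0.443, n = 11). With only Control replicate 4 left out it was 0.334 (permutation p 0.293), and the rho was 0.364. Leaving out any other library gave an r of 0.765 to 0.843.

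Within the 8 CR libraries r was 0.503 (exact permutation p 0.198, adjusted over 6 pairs 0.297) and rho 0.786 (exact permutation p 0.0279, adjusted 0.0838). CR replicate 8 was the highest library for both miRNAs, whereas the lowest were CR replicate 6 for miR-206 and CR replicate 5 for miR-133b-3p. The value within CR also moved with the scaling, to 0.718 with library totals alone and 0.475 with totals that leave out miR-486-5p. Control alone, with 5 samples, was not given a correlation. Levels in a library share 1 scaling factor, which can add to any correlation of this kind.

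**Figure D2:**
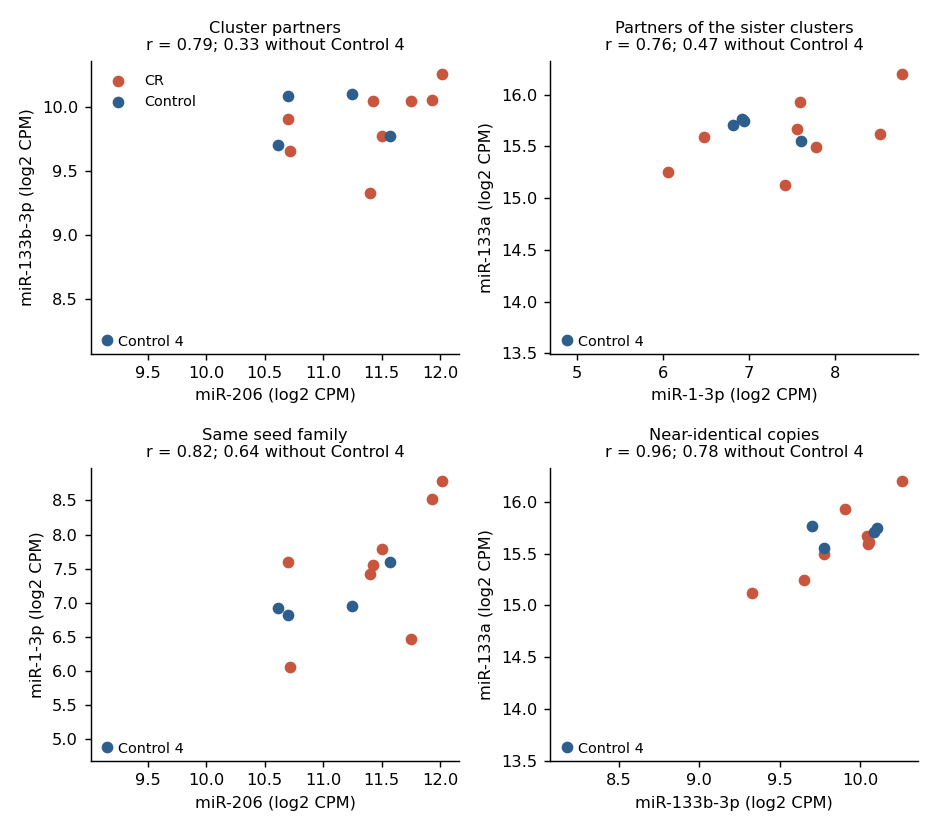
Log2 CPM of 4 pairs of muscle miRNAs in the 13 libraries, CR in red and Control in blue. Control replicate 4 sits at the lower left of every panel, and r for miR-206 with miR-133b-3p is 0.786 with it and 0.334 without it.

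**Figure D3:**
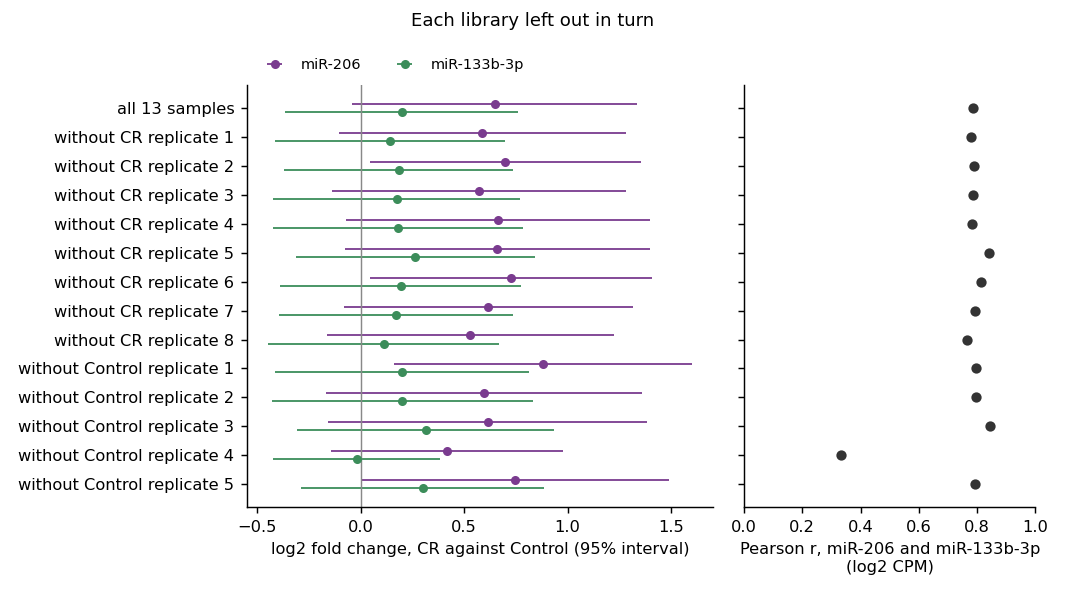
Results with each library left out in turn. The left panel gives the log2 fold change of miR-206 and miR-133b-3p, CR against Control, with 95% intervals, and the right panel the Pearson r between the miRNAs. Leaving out Control replicate 4 moves r to 0.334, while the other 12 choices leave it at 0.765 to 0.843.

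Counts of miR-206 per count of miR-133b-3p in the same library compare the partners without any scaling. In the 8 CR libraries this ratio ran from 1.73 (replicate 6) through a median of 3.30 to 4.21 (replicate 5). In Control replicates 1 to 5 it was 3.48, 1.88, 1.53, 1.97 and 2.21. Control replicate 4, low for both miRNAs, had a ratio in the middle of its group, and Control replicate 1 was the only Control library above 2.21.

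The mean log2 ratio was 1.55 ± 0.43 in CR (SD, n = 8) and 1.09 ± 0.44 in Control (SD, n = 5). The difference of 0.46 ± 0.25 (SE) did not pass (two-sided exact permutation p 0.0932, adjusted over 3 ratios 0.280), and 6 of 8 CR samples lay above the Control mean. The smallest p this test can give is 0.000777. Without Control replicate 1 the difference was 0.64 (exact permutation p 0.0303), and without CR replicate 6 it was 0.57 (exact permutation p 0.0328), both below 0.05 before adjustment. With Control replicate 4 left out the difference was 0.43 (exact permutation p 0.143). This ratio compares the diet differences of miR-206 and miR-133b-3p directly, and they were not shown to differ.

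The relative of miR-206 at another locus is miR-1-3p, a miRNA of differentiated muscle fibres with the same seed. In the 8 CR libraries miR-1-3p ran from 66.3 CPM (replicate 2) through a median of 190 to 438 CPM (replicate 8), and in Control replicates 1 to 5 it was 194, 121, 112, 28.9 and 123 CPM. Its log2 fold change was 0.91 ± 0.45 (SE; edgeR adjusted p 0.985), and 0.66 without Control replicate 4. The groups overlapped, and CR replicates 1 and 2, at 88.2 and 66.3 CPM, lay below 4 of the 5 Control libraries.

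Across the 13 libraries miR-206 and miR-1-3p had an r of 0.822 (permutation p 0.000860, adjusted over 6 pairs 0.00258) and a rho of 0.692 (permutation p 0.0109, adjusted 0.0326). Without the same 2 farthest samples r was 0.633 (permutation p 0.0364, n = 11), and without Control replicate 4 it was 0.639 (permutation p 0.0255). Within CR r was 0.594 (exact permutation p 0.118, n = 8). A difference between this correlation and that of miR-206 with miR-133b-3p was not tested.

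Counts of miR-206 per count of miR-1-3p were 39.2 and 25.4 in CR replicates 1 and 2 and 8.62 to 15.9 in the other CR libraries, against 12.95 to 19.8 in Control. The mean log2 ratio was 3.91 ± 0.74 in CR (SD, n = 8) and 4.03 ± 0.27 in Control (SD, n = 5), a difference of -0.12 ± 0.29 (SE; exact permutation p 0.747, adjusted 0.903). CR replicates 1 and 2, with the highest ratios, held the least miR-1-3p of the CR libraries.

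The relative of miR-133b is miR-133a, the 4th most abundant miRNA of the table, which averaged 51246 ± 12659 CPM in CR (SD, n = 8) and 45023 ± 18343 CPM in Control (SD, n = 5). Its log2 fold change was 0.19 ± 0.30 (SE; edgeR adjusted p 0.985) and -0.0509 without Control replicate 4, close to the values of miR-133b-3p. Over 13 libraries miR-133b-3p and miR-133a had an r of 0.956 (permutation p 0.000140, adjusted over 6 pairs 0.000840) and a rho of 0.720 (permutation p 0.00759). The r was 0.781 without Control replicate 4, and within CR it was 0.854 (exact permutation p 0.00737, adjusted 0.0442, n = 8).

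Counts of miR-133b-3p came to 1.54 to 2.14% of those of miR-133a in CR libraries and to 1.49 to 2.28% in Control. The difference in log2 ratio was -0.0134 ± 0.12 (SE; exact permutation p 0.903, n = 8 and 5). The mature miRNAs differ in their last base only, and how the counting divided their reads is not stated in these sources. The level of miR-133b-3p and its tie to miR-133a are therefore uncertain.

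**Figure D4:**
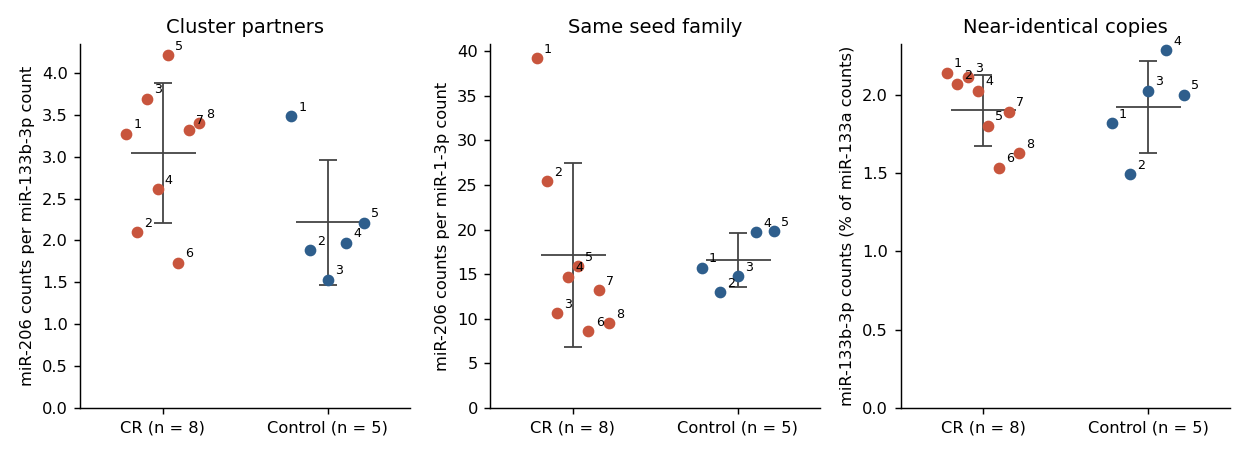
Within-library ratios of counts in CR (left) and Control (right), with replicate numbers, means and SD. miR-206 per miR-133b-3p averaged 3.04 in CR and 2.22 in Control, miR-206 per miR-1-3p 17.1 in CR and 16.6 in Control, and miR-133b-3p was 1.90% of miR-133a in CR and 1.92% in Control, all with overlapping groups.

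Of the remaining pairs, the partners at the sister loci, miR-1-3p and miR-133a, had an r of 0.758 (permutation p 0.00469, adjusted over 6 pairs 0.00938) that was 0.466 without Control replicate 4. The pairs from different loci and families gave 0.730 for miR-206 with miR-133a (permutation p 0.0283, adjusted 0.0283) and 0.706 for miR-133b-3p with miR-1-3p (permutation p 0.0131, adjusted 0.0157). Leaving out Control replicate 4 gave 0.116 and 0.311. With library totals alone the r of miR-206 with miR-133b-3p was 0.624 and with miR-1-3p 0.602, and that of miR-133b-3p with miR-1-3p was 0.183.

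The spread of a log2 ratio over libraries, which needs no scaling, gave another order. Its SD over the 13 libraries was 0.48 for miR-206 with miR-133b-3p, 0.53 with miR-133a and 0.59 with miR-1-3p, against a median of 0.73 over the 15753 pairs of the 178 miRNAs with at least 10 CPM. It was 0.19 for miR-133b-3p with miR-133a. By this measure miR-206 lay nearer to its cluster partner than to miR-1-3p. The measure also grows with each miRNA's own spread. The SD of log2 CPM was 1.02 for miR-1-3p and 0.54 for miR-133b-3p. By r of levels it lay nearer to miR-1-3p with TMM factors, but not with library totals alone, where r within CR was 0.718 with miR-133b-3p and 0.322 with miR-1-3p, nor by rho within CR (0.786 and 0.595). These values describe the libraries and carry no test.

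With the cluster members left out, 176 miRNAs were compared with miR-206 over 13 libraries. The patterns most like that of miR-206 were those of miR-30c-2-3p (r 0.862), miR-1-3p (0.822), let-7g-5p (0.821), miR-30a-3p (0.807) and miR-30d-5p (0.768). The cluster partner miR-133b-3p would rank 5th here and 23rd once Control replicate 4 was left out. Without that library the 5 values were 0.598, 0.639, 0.565, 0.431 and 0.233. The least like were miR-100-5p (-0.831), miR-130a-3p (-0.651) and miR-410-3p (-0.628), which without Control replicate 4 were at -0.708, -0.249 and 0.244. With library totals alone these were at -0.341, -0.349 and -0.243, and the 5 most like at 0.609, 0.602, 0.559, 0.636 and 0.589.

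For miR-133b-3p the most alike were miR-133a (r 0.956), miR-133c-5p, the other arm of a sister hairpin (0.921), the muscle-abundant miR-22 (0.899), miR-27b-5p (0.898) and miR-30d-5p (0.892), and miR-206 ranked 18th. Without Control replicate 4 the 5 values were 0.781, 0.610, 0.674, 0.743 and 0.434, and miR-206 ranked 28th. The least alike were miR-127-3p (-0.864), miR-654-3p (-0.835) and miR-432-5p (-0.793), miRNAs of the imprinted DLK1-DIO3 region, which without that library were at -0.396, -0.420 and -0.206. With library totals alone these were at -0.418, -0.249 and -0.183, and the 5 most alike at 0.912, 0.903, 0.844, 0.895 and 0.835. The median r of all 176 was 0.0648 with miR-206 and 0.0966 with miR-133b-3p, and 0.0328 and 0.226 with library totals alone.

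**Figure D5:**
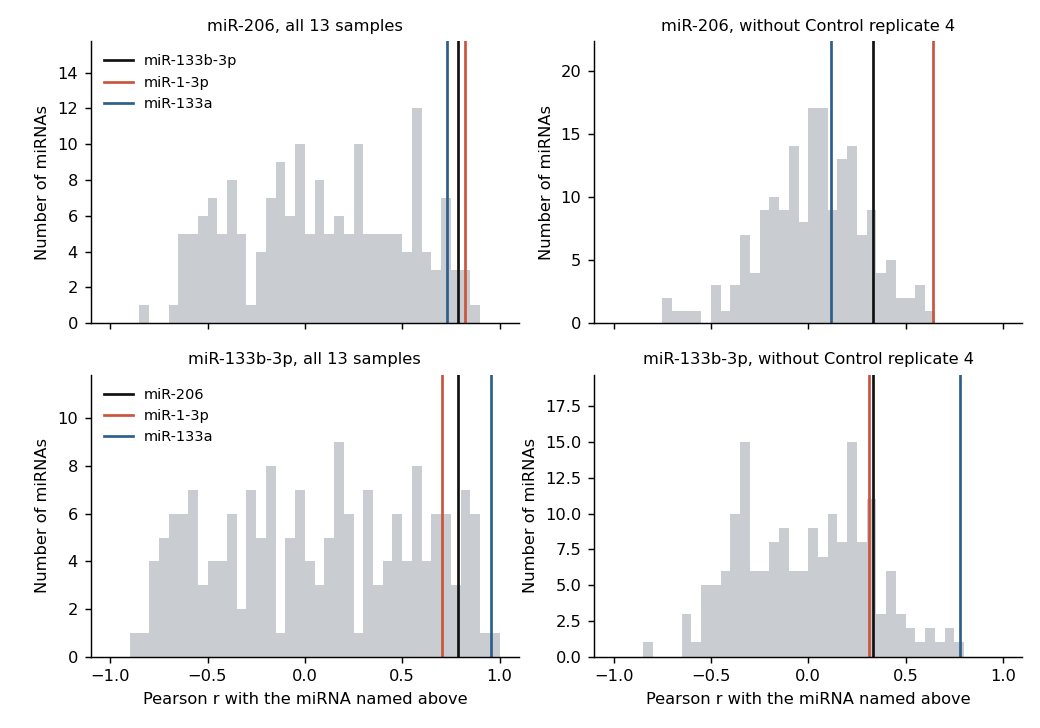
Pearson r of log2 CPM between each of 176 miRNAs (grey bars) and miR-206 (top) or miR-133b-3p (bottom), over all 13 libraries (left) and without Control replicate 4 (right). Lines mark the cluster partner, miR-1-3p and miR-133a. For miR-206 the partner's line moves from 0.786 to 0.334 and that of miR-1-3p from 0.822 to 0.639.

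The list of muscle-enriched miRNAs holds 15 names, of which 8 were tested, miR-206 and miR-133b-3p among them, and 0 were called. The other 6 all had a log2 fold change above 0, with a median of 0.42, whereas 136 of all 263 miRNAs (51.7%) lay above 0, with a median of 0.0103. With Control replicate 4 left out, 4 of these 6 and 149 of 263 lay above 0, with medians of 0.21 and 0.0603. With library totals alone 5 of the 6 and 47 of 263 did. Both arms of miR-486, a growth-signalling miRNA, were at 0.43 ± 0.34 (5p) and 0.40 ± 0.30 (3p, both SE), and without that library at 0.25 and 0.17. The slow-fibre miRNAs miR-208b-3p and miR-499-5p, made from myosin genes, had 0.71 ± 0.95 and 0.20 ± 0.84. They ran from -0.36 to 1.02 and from -0.13 to 0.61 over single libraries left out. miR-133c-5p was at -0.0289 ± 0.30.

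Of miRNAs tied to satellite cells, the stem cells of muscle, and to regeneration, 37 of 56 names were tested. In CR 15 were higher and 22 lower, against 136 and 127 of all 263. None was called, as among all 263, and the median log2 fold change was -0.0373, against 0.0103. Of the 37, 1 had an unadjusted p below 0.05, against 2.66% of all 263. The smallest unadjusted p was that of miR-489-3p, known from quiescent satellite cells in mice, which averaged 8.48 ± 4.30 CPM in the CR group (SD, n = 8) and 4.25 ± 2.47 CPM in the Control group (SD, n = 5). Its log2 fold change was 1.01 ± 0.45 (SE; edgeR adjusted p 0.985). Next were miR-29c-5p (0.61 ± 0.35), miR-27a-3p (0.41 ± 0.25) and miR-195-5p (-0.47 ± 0.29), which without Control replicate 4 were at 0.39, 0.31 and -0.16. Without CR replicate 1 miR-27a-3p was at 0.16.

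In Control replicate 4, where the muscle miRNAs were lowest, the sums of the fibroblast and endothelial lists stood above all other libraries, and those of the other cell type lists did not. These lists are not exclusive. miR-221, miR-222 and miR-424 of the endothelial list and miR-214 of the fibroblast list are also in the satellite cell and regeneration list. In the Control group miR-221-3p and miR-222-3p averaged 239 and 275 CPM, and miR-126 132 CPM. The 6 fibroblast miRNAs, all tested, summed to 2173 CPM in Control replicate 4, against 536 to 1727 CPM in CR and 809 to 1512 CPM in the other Control libraries. The 7 endothelial miRNAs tested of 11 names summed to 1086 CPM there, against 462 to 865 CPM in CR and 550 to 711 CPM in the other Control libraries. For 7 leukocyte miRNAs tested of 10 names the sum there was 806 CPM, against 365 to 906 CPM in CR and 482 to 575 CPM in the other Control libraries. Their part in the levels of miR-206 and miR-133b-3p was not tested.

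Neuronal miRNAs, 4 tested of 17 names, summed to 58.3 to 158 CPM in CR and 45.4 to 110 CPM in Control, and Control replicate 4 stood inside this range at 59.5 CPM. The list also named miR-128, but the table calls it miR-128a and miR-128b, so neither was matched or summed. Their 3p arms averaged 299 and 326 CPM in CR and 332 and 364 CPM in Control. Log2 fold changes were -0.15 and -0.16 for these arms, and 0.36 and 0.075 for the 5p arms. Of the 17 names 10 were detected, and both arms of miR-137 and miR-9-3p were among those at 0 counts. The list's 1 member with an unadjusted p below 0.05, miR-9-5p, named after its values were seen, averaged 7.29 ± 3.58 CPM in CR (SD, n = 8) and 3.35 ± 1.76 CPM in Control (SD, n = 5), with a log2 fold change of 1.12 ± 0.44 (SE; edgeR adjusted p 0.985, unadjusted 0.0197). The endothelial list also had 1 such member, miR-130a-3p, lower in CR at -0.62 ± 0.29 (SE; edgeR adjusted p 0.985, unadjusted 0.0453). Of all 263 tested miRNAs 2.66% had an unadjusted p below 0.05. Smooth muscle miRNAs (3 tested) summed to 13395 to 45626 CPM in CR and 10986 to 42299 CPM in Control, with 29896 CPM in Control replicate 4. The red blood cell miR-451 stood at 135 to 1509 CPM in CR and 137 to 1383 CPM in Control, with 745 CPM in that library. The liver miR-122a-5p stood at 0.571 to 8.32 CPM in CR and 1.68 to 24.2 CPM in Control, with 1.71 CPM there. Median log2 fold changes were -0.33 for fibroblast, -0.21 for endothelial, -0.15 for leukocyte and -0.0870 for smooth muscle miRNAs, with 0 calls in each list. For the 4 neuronal miRNAs, without miR-128a and miR-128b, the median was 0.41, also with 0 calls. Besides miR-9-5p these were miR-129-2-3p (0.61 ± 0.86), miR-129-5p (0.22 ± 0.79) and miR-132-3p (0.058 ± 0.25, all SE). Of these, miR-132-3p had the highest level, with means of 43.6 CPM in CR and 41.8 CPM in Control. Without Control replicate 4 the fibroblast, endothelial and leukocyte medians were -0.13, -0.0550 and -0.0269. The neuronal median was -0.0521 with CR replicate 4 left out and 1.22 with Control replicate 1 left out.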

How the data were processed

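Small RNA was gel-isolated from vastus lateralis biopsies and made into Illumina TruSeq libraries with single-end reads, per the labels' protocols. The submitters' processing notes name Mmul_8.0.1 as genome build. Which aligner and counting tool were used is not given in the sources used here. From its values, the deposited table is of raw counts, whole numbers for each miRNA in each library, without normalization by the authors.

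Of 1703 rows, 702 predicted loci named by position were left out. For 67 names listed more than once only the row with the most counts was used, and 3 pairs with counts within 1% of each other were merged, miR-133a with miR-133c-3p among them. The test was edgeR 4.0.16 in R 4.3.3 (robust quasi-likelihood fit, TMM, filterByExpr) on 263 of 909 miRNAs, with p-values adjusted by Benjamini-Hochberg over all 263 and a threshold of 0.05. Log2 CPM used a prior count of 2 and ratios a pseudocount of 1. Ratios were tested by exact permutation over 1287 assignments of the diet labels, correlations by permutation with 100000 resamples, or over all pairings within CR. Samples were grouped by their diet label. Alternatives were DESeq2 1.42.0, limma-voom (limma 3.58.1), other scalings, filters and covariates, summed copies and each library left out. Scripts were tested on simulated data.

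The members, the lists and the tests were chosen with earlier results of these data known. Named miRNAs follow a rule: the members, tested members of the muscle-enriched list and both seed families, the 4 satellite cell miRNAs with the smallest p, and for each partner the 5 highest and 3 lowest correlations among miRNAs of at least 10 CPM. Among neuronal miRNAs, miR-9-5p, miR-128a and miR-128b were named outside this rule, after their values were seen. Keeping the predicted loci was an alternative added after seeing the data.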

Additional observations from a re-analysis of the deposited data

Results flagged for a closer look

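The level of miR-133b-3p in Control replicate 4 was 8.18 log2 CPM, against 9.70 in the next lowest Control library. This gap took 0.791 of the range of the 5 Control samples, above the critical value of 0.71 for a single far sample. Among the 10 sets of values looked at (the levels of both miRNAs and 3 ratios, in CR and in Control) no other sample passed, and chance flags about 1 set in 20. For miR-206 the gap in the same library was 0.603 of the range, at 9.15 against 10.6 log2 CPM, and did not pass. Both gaps are of TMM-scaled levels, and Control replicate 4 had the largest TMM factor, 1.76. As a share of unscaled counts miR-133b-3p was 0.0508% there, against 0.0694% in Control replicate 1 and 0.116% in Control replicate 3. With miR-486-5p left out of the totals these shares were 0.0883%, 0.193% and 0.285%. The gap was not computed on unscaled shares, so the flag holds for TMM-scaled levels only.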

How the results depend on the processing

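Over 24 alternatives miR-206 kept its direction and no alternative brought it past the threshold, with log2 fold changes of 0.42 to 0.88 over single libraries left out and 0.53 to 0.78 otherwise. miR-133b-3p ran from -0.0202 (without Control replicate 4, the only reversal) to 0.31 over libraries left out and from 0.00788 to 0.33 otherwise. Every alternative called 0 miRNAs. Of the list medians, that of satellite cell miRNAs moved to -0.33 with library totals alone. That scaling also moved the median of all miRNAs to -0.26 from 0.0103. It moved the fibroblast, endothelial and leukocyte medians to -0.65, -0.51 and -0.52, and only the slow-fibre median rose, from 0.46 to 0.76. The liver miRNA was at 0.39 without Control replicate 5.

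The diet difference in the log2 ratio of miR-206 to miR-133b-3p ran from 0.34 to 0.64 over libraries left out. The difference for the ratio of miR-206 to miR-1-3p ran from -0.31 to -0.0029. For the ratio of miR-133b-3p to miR-133a the difference lay on both sides of 0, from -0.10 to 0.052. The correlation of the partners ran from 0.334 to 0.843 over libraries left out, and was 0.265 without the 2 farthest samples and 0.503 in CR alone, where it no longer passed.

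Replicate numbers did not pair the samples, since same-numbered samples deviated with correlations of -0.239 to -0.0474. With the replicate number as a block, the log2 fold changes of miR-206 and miR-133b-3p were 0.77 and 0.23, and the 3 ratio differences over 5 pairs were 0.53, 0.21 and 0.088 in the order above, the last 2 with the opposite sign to that without the block. With 5 pairs that exact test cannot go below p 0.0625.

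With 8 and 5 samples, the 95% interval of miR-206 (-0.0425 to 1.34) includes both no difference and a doubling.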

Other observations

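Counts of miR-206 exceeded those of miR-1-3p in 13 of 13 libraries, although miR-1 is widely known as one of the most abundant miRNAs of adult muscle. The ratio ran from 8.62 to 39.2, and from 4.54 to 20.9 when both rows of miR-1-3p were summed. These ratios compare counts only, and whether they give the amounts of these miRNAs in the muscle was not tested. miR-1-3p ranked 88th of 263 miRNAs by mean level, while miR-133a, made at the same loci, ranked 4th. The 3p arm outnumbered the 5p arm by 3023 to 1 for miR-133b. Counts of miR-133a, with which miR-133c-3p was merged, came to 968 per count of miR-133c-5p. That value is therefore not an arm ratio of 1 hairpin.

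Spread over libraries also differed between the partners. The SD of log2 CPM was 0.77 for miR-206, larger than that of 79.8% of the tested miRNAs, and 0.54 for miR-133b-3p, larger than that of 47.1%. Without Control replicate 4 these were 0.51 and 0.26.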
